A study of Homo sapiens with 4 samples.

Results

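The complement genes described here are C3, CFB, C1R, C1S, CFI, SERPING1, CD46, CD55 and CD59, that is 9 of the 20263 genes in the count table. They were chosen by gene symbol, with the fold changes of RB-BC over DMSO in these libraries already known. Their values in that comparison are therefore given as a description, without a p-value, and nothing is read from how many of them differ. All 9 symbols matched 1 Ensembl identifier each, 8 had counts, and CFI had no count in any library. All cells were of the established human line MDA-MB-231, derived from a breast cancer without hormone receptors or HER2 amplification, grown in DMEM with serum, and the labels name no genetic change. In 2 libraries the cells had received RB-BC for 24 h, a compound derived from ribociclib, which inhibits the cell cycle kinases CDK4 and CDK6, and in the other 2 libraries they had received DMSO, a solvent. The sources used here do not give a dose, and the treatment protocol calls the compound Rib_CA without saying whether that is RB-BC. The labels do not say whether the libraries of a group came from separate cultures, so the spread between them may be technical.

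Library totals were 42786422 and 42752387 counts for RB-BC 1 and 2, and 34774542 and 37754168 counts for DMSO 1 and 2. Mitochondrially encoded genes took 10.1% and 10.3% of counts in the RB-BC libraries, against 8.68% and 21.7% in the DMSO libraries, so DMSO 2 stood apart. Levels are given as CPM, that is counts scaled to library size with TMM factors, and a positive log2 fold change means a higher level in RB-BC than in DMSO. The line's vimentin gene VIM was at 5225 and 5465 CPM in RB-BC, against 3303 and 4147 CPM in DMSO. CD44 had 513 and 496 CPM in RB-BC, against 447 and 568 CPM in DMSO. The oestrogen receptor gene ESR1 was at or below 0.611 CPM in every library and the progesterone receptor gene PGR at or below 1.73 CPM. The HER2 gene ERBB2 was present, at 57.4 and 56.3 CPM in RB-BC, against 71.5 and 64.1 CPM in DMSO. Luminal keratin genes were present too. KRT8 had 221 and 214 CPM in RB-BC, against 273 and 295 CPM in DMSO, and KRT18 had 185 and 176 CPM, against 217 and 304 CPM. The 8 blood cell markers summed to 1.91 and 2.30 CPM in RB-BC, against 2.02 and 1.52 CPM in DMSO, with CD3E and MS4A1 at 0. The 6 hepatocyte markers summed to 0.369 and 0.228 CPM in RB-BC, against 0.372 and 0.477 CPM in DMSO, with APOB and TTR at 0. Liver cells are the main source of plasma complement, and their markers were at or near 0 here. Among the blood cell markers the leukocyte gene PTPRC had 1.06 and 1.10 CPM in RB-BC, against 0.584 and 0.388 CPM in DMSO, and its part in the results was not tested.

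Complement is a cascade of plasma and cell surface proteins that coats targets with fragments of C3, recruits immune cells and can open pores in membranes. The classical route starts when C1q activates the proteases C1r and C1s, and the alternative route amplifies itself when factor B (CFB) joins deposited C3b to form a C3-cleaving enzyme. Host cells are protected by soluble regulators, among them factor I (CFI) and C1 inhibitor (SERPING1), and by the membrane proteins CD46, CD55 and CD59. Most plasma complement is made in the liver, while epithelial and tumour cells also make C3 and factor B, which inflammatory cytokines induce through NF-kB, C/EBP and STAT transcription factors.

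RefSeq promoter sequences were at hand for 6 of the 9 genes, namely CFB, C1R, CFI, CD46, CD55 and CD59. C3, C1S and SERPING1 had no entry. Those of CFB and C1R are shown because both genes were higher in RB-BC, that of CD55 because it is the most abundant membrane regulator in these cells, and that of CFI because the gene had no count. Each run is the 250 bases before the first listed gene start, 5′ to 3′ on the gene's strand, in build GRCh38.p14. Capitals mark matches to any of 4 motifs, searched on both strands: the NF-kB motif, the interferon-stimulated response element (ISRE; TTTC, any 2 bases, TTTC), the STAT motif TTCNNNGAA (GAS) and the C/EBP core TTGCNNAA. The CFB run is chr6:31945845-31946094 (plus strand), the C1R run chr12:7092446-7092695 (minus strand), the CD55 run chr1:207321428-207321677 (plus strand) and the CFI run chr4:109802000-109802249 (minus strand).
CFB: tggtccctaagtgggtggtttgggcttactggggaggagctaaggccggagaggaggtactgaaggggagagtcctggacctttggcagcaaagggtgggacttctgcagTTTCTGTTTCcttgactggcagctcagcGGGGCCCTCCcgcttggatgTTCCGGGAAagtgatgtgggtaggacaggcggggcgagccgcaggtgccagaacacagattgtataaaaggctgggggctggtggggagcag
C1R: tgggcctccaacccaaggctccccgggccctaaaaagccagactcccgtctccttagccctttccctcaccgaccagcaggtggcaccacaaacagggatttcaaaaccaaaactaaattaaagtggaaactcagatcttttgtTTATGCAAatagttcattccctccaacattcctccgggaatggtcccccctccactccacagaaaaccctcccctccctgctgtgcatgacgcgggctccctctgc
CD55: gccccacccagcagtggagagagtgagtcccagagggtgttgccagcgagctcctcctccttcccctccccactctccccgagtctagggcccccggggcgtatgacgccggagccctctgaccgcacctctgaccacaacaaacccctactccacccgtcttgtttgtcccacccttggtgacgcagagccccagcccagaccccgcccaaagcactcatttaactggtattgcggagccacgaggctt
CFI: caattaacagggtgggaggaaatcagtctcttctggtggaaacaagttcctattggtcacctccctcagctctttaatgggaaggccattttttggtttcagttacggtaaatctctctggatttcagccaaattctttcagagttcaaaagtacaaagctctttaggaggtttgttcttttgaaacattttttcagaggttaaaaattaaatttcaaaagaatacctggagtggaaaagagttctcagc

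The CFB promoter held 3 matches close together, an ISRE at -140 to -131, an NF-kB match at -112 to -103 and a GAS match at -92 to -84, counted back from the gene start and not overlapping each other. Over the 35116 listed promoters of the same length, 9.96% held an NF-kB match, 3.02% an ISRE, 6.57% a GAS match and 9.05% a C/EBP match. The first C1R start had a C/EBP match at -106 to -99, and its second start had a C/EBP match at -167 to -160 and a GAS match at -86 to -78. The promoter of CD55, both of CD46 and that of CFI held none of these letters in this window. CD59 has 4 listed starts, of which the first and second, which overlap in sequence, shared a GAS match, and the third had 2 C/EBP matches. These matches are letters in a sequence and show no binding.

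**Figure D1:**
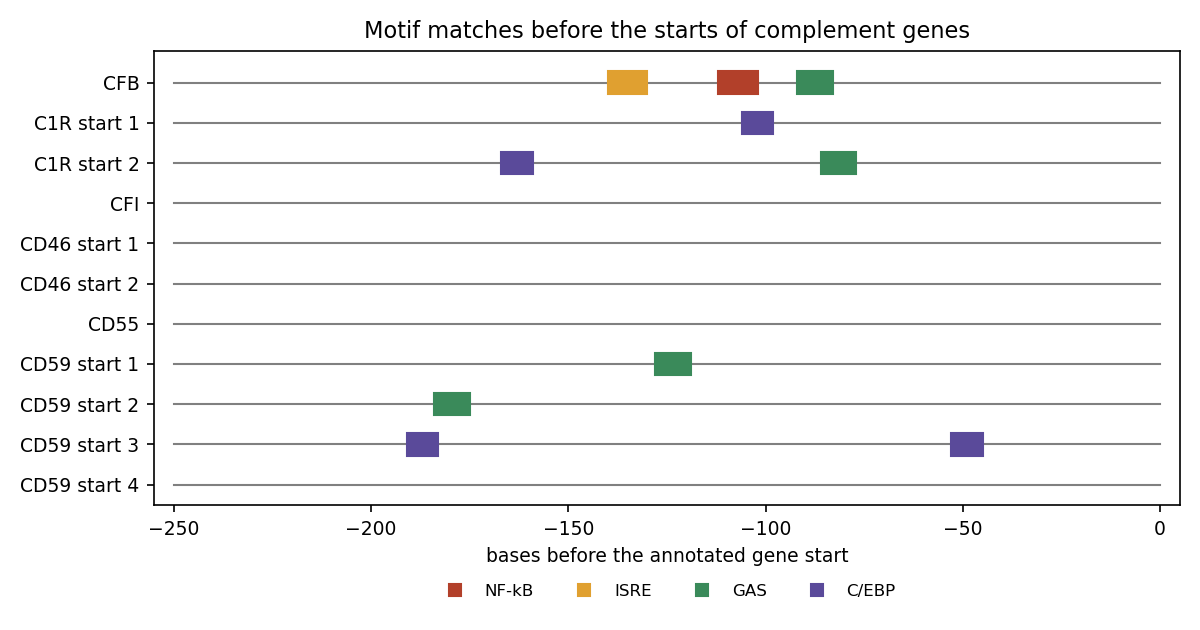
Motif matches (coloured boxes) in the bases before each listed start of the 6 complement genes with a RefSeq promoter, where the horizontal axis gives the distance from the start. CFB carries an ISRE, an NF-kB and a GAS match between -140 and -84, while CFI, CD46 and CD55 carry no match.

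The central component C3 and its partner factor B showed the largest differences among the 9 genes. C3 (ENSG00000125730), whose cleavage is the step all complement routes share, had 865 and 480 counts in RB-BC 1 and 2, against 20 and 30 counts in DMSO 1 and 2. This was 19.9 and 11.0 CPM in RB-BC, against 0.531 and 0.895 CPM in DMSO, and the groups lay far apart. Its log2 fold change was 4.44 ± 0.43 (SE, n = 2 per group), a 21.7-fold higher level in RB-BC. CFB (ENSG00000243649), the protease of the alternative-route C3 convertase, had 1722 and 1203 counts in RB-BC, against 149 and 125 counts in DMSO. In CPM it stood at 39.7 and 27.4 in RB-BC, against 3.96 and 3.73 in DMSO, without overlap. The log2 fold change of CFB was 3.13 ± 0.24 (SE), or 8.73-fold. For both genes RB-BC 1 was the higher treated library, and leaving out either library of either group kept C3 between 3.95 and 4.85 and CFB between 2.84 and 3.37 on the log2 scale. Together C3 and CFB came to 59.6 and 38.4 CPM in RB-BC, against 4.49 and 4.62 CPM in DMSO. In bulk RNA, more expressing cells and more RNA per cell cannot be told apart. In GENCODE release 29, CFB shares 2249 of its 4997 exon bases with the read-through gene AL645922.1, which had 4 and 5 counts in RB-BC, against 0 and 30 counts in DMSO.

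C1R and C1S encode the paired serine proteases of the C1 complex and lie side by side on chromosome 12, followed by the related gene C1RL. C1R (ENSG00000159403) had 942 and 884 counts in RB-BC, against 275 and 335 counts in DMSO. Its levels were 21.7 and 20.2 CPM in RB-BC, against 7.30 and 9.99 CPM in DMSO, and the groups did not overlap. The log2 fold change of C1R was 1.28 ± 0.21 (SE), or 2.42-fold, and it was 1.07 without DMSO 1 and 1.52 without DMSO 2. C1S (ENSG00000182326) had 191 and 163 counts in RB-BC, against 77 and 65 counts in DMSO, or 4.40 and 3.72 CPM in RB-BC and 2.04 and 1.94 CPM in DMSO. The C1S groups did not overlap either, at a log2 fold change of 1.03 ± 0.26 (SE) and a fold of 2.04. Per exon length, C1R exceeded C1S by 5.42 and 5.96 times in RB-BC, against 3.92 and 5.66 times in DMSO, so the balance of the pair overlapped between groups. C1RL, whose product is a C1r-like protease, was the third gene of this row to be higher, at 20.0 and 19.6 CPM in RB-BC, against 7.83 and 10.4 CPM in DMSO (log2 fold change 1.12 ± 0.20, edgeR adjusted p = 0.0203). C1R and C1RL share 672 exon bases in GENCODE release 29, and C1S shares 229 with EMG1. The sources used here do not say how the authors counted such reads.

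Among the members, the soluble regulators CFI and SERPING1 had few counts or none. CFI (ENSG00000205403), the protease that cuts C3b to inactive forms with the help of cofactors such as CD46, had 0 counts in all 4 libraries. A count of 0 was read against a fixed floor of 3 counts. That floor is 0.0692 and 0.0684 CPM in the RB-BC libraries and 0.0797 and 0.0895 CPM in the DMSO libraries, counting error only. The exact 95% interval of a count of 0 runs slightly higher, to 3.69 counts. No fold is given for CFI. By GENCODE exons, CFI shares 1562 of its 4875 exon bases with AC126283.2, a gene on the same strand that has no counts here. The sources used here do not say how reads in shared bases were counted. The 0 and its limit therefore do not cover CFI reads left out for that reason. SERPING1 (ENSG00000149131), the inhibitor that removes C1r and C1s from the C1 complex, had 25 and 21 counts in RB-BC, against 2 and 8 counts in DMSO. Both RB-BC libraries, at 0.576 and 0.479 CPM, lay above the DMSO libraries, at 0.0531 and 0.239 CPM. The log2 fold change of SERPING1 was 1.87 ± 0.72 (SE). Its size depended on which DMSO library was kept, being 3.24 without DMSO 2 and 1.14 without DMSO 1. The ratio of summed counts, scaled by library size, was 3.75 (exact 95% interval 1.87 to 8.34, counting error only).

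The membrane regulators were the abundant members and differed least. CD46 (ENSG00000117335), a cofactor for CFI that spans the membrane, had 3017 and 3041 counts in RB-BC, against 2945 and 2066 counts in DMSO. At 69.5 and 69.4 CPM, both RB-BC libraries sat between the DMSO libraries at 78.2 and 61.6 CPM, and the log2 fold change was -0.01 ± 0.16 (SE). CD55 (ENSG00000196352), or decay-accelerating factor, which takes C3 convertases apart, had 19449 and 19879 counts in RB-BC, against 9634 and 14099 counts in DMSO. Its RB-BC levels of 448 and 454 CPM lay above both DMSO levels of 256 and 421 CPM, but DMSO 2 came close. The log2 fold change of CD55 was 0.41 ± 0.25 (SE), and it was 0.82 without DMSO 2 and 0.10 without DMSO 1. CD59 (ENSG00000085063), which blocks the membrane attack complex, had 4038 and 8043 counts in RB-BC, against 4157 and 3168 counts in DMSO. RB-BC 2 stood alone at 183 CPM, while RB-BC 1 at 93.1 CPM lay below both DMSO libraries at 110 and 94.5 CPM. The log2 fold change of CD59 was 0.43 ± 0.32 (SE), at 0.84 without RB-BC 1 and -0.14 without RB-BC 2, so its direction depended on 1 library. Summed, CD46, CD55 and CD59 came to 611 and 706 CPM in RB-BC, against 444 and 577 CPM in DMSO. CD59 shares 629 of its 10358 exon bases with AL049629.2 in GENCODE release 29.

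**Figure D2:**
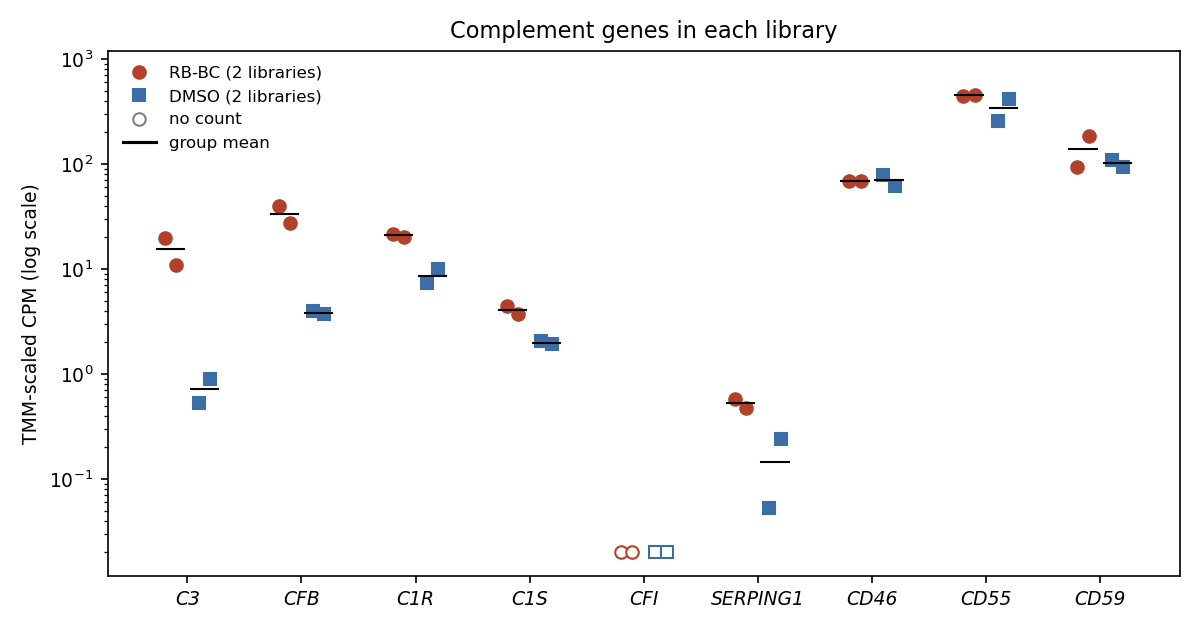
TMM-scaled CPM on a log axis for the 9 complement genes, with RB-BC libraries (circles) left of DMSO libraries (squares), group means as lines and open symbols for no count. C3 and CFB show the widest gaps, CFI has no count, and CD46 and CD59 overlap between groups.

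Levels of different genes were compared per kilobase of exon (CPM per kb), using the joined exons of GENCODE release 29. In RB-BC the order of mean levels per kb was CD55 (76.3), CD59 (13.4), CD46 (7.98), CFB (6.72), C1R (3.56), C3 (1.85), C1S (0.628) and SERPING1 (0.146). In DMSO it was CD55 (57.3), CD59 (9.89), CD46 (8.03), C1R (1.47), CFB (0.769), C1S (0.308), C3 (0.0856) and SERPING1 (0.0405). CFB thus stood above C1R, and C3 above C1S, in both RB-BC libraries, whereas both pairs had the opposite order in both DMSO libraries. CFB reached 7.94 and 5.49 CPM per kb in RB-BC, beside 7.99 and 7.97 for CD46, so the 2 genes lay close together in RB-BC 1. CD59 and CD46 were neighbours in both orders, with a CD59 to CD46 ratio of 1.13 and 2.22 in RB-BC, against 1.19 and 1.29 in DMSO. Ratios within a library need no scaling between libraries. Per length, CD55 exceeded C3 by 31.7 and 58.4 times in RB-BC, against 679 and 662 times in DMSO. CD55 exceeded CFB by 9.55 and 14.0 times in RB-BC, against 54.7 and 95.4 times in DMSO. The C3 to CFB ratio was 0.301 and 0.239 in RB-BC, against 0.0805 and 0.144 in DMSO.

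Across all genes, edgeR's quasi-likelihood test with Benjamini-Hochberg adjustment at 0.05 called 16.1% of 13744 tested genes, 8.58% higher (1179 genes) and 7.53% lower (1035 genes) in RB-BC. Scaled by library totals alone, the calls were 790 higher and 415 lower. Of the 9 complement genes, 8 were tested and 4 were past this threshold, all higher in RB-BC, namely C3, CFB, C1R and C1S. The other 4 tested genes, SERPING1, CD46, CD55 and CD59, were not past it. By unadjusted p under 0.05, edgeR had 5 of the 8 higher and 0 lower. The share over all tested genes at that unadjusted threshold was not computed, so this count has no background beside it. Both RB-BC libraries were above both DMSO libraries for 6 of the 8, and below them for 0, where the shares over all tested genes were 33.1% and 32.1%. The median log2 fold change of the 8 was 1.15, beside 0.00 over all tested genes. Since the genes were chosen with this comparison known, these counts support nothing further. C1R was not past the threshold without RB-BC 1 (1.23) or without RB-BC 2 (1.33), and C1S was not past it with any of the 4 libraries left out (0.90 to 1.14) or with library totals alone (1.07). Without DMSO 2, CD55 (0.82) and SERPING1 (3.24) were past it. SERPING1 met the low-count filter only through its RB-BC libraries, so nothing is read from its call or from its part in these counts.

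The other genes of the complement system were a list of 49, of which 21 had no count in any library and 21 were tested. Of these 21 tested genes, 6 were called higher, 2 were called lower and 13 did not pass, with a median log2 fold change of 0.53, beside 8.58% higher and 7.53% lower over all tested genes. The genes that rose were CFD, CFP, C1RL, MASP1, THBD and ITGAX, and those that fell were MASP2 and C4BPB. MASP1 met the low-count filter only through its RB-BC libraries. The list was also put together with earlier results of these data known, so nothing is read from how many of its genes were called. CFD encodes factor D, which cuts factor B, and had 9.04 and 8.01 CPM in RB-BC, against 3.45 and 3.88 CPM in DMSO (log2 fold change 1.22 ± 0.21, edgeR adjusted p = 0.0199). CFP encodes properdin, which stabilises the alternative-route convertase, and had 17.8 and 15.8 CPM in RB-BC, against 10.3 and 10.5 CPM in DMSO (0.69 ± 0.17, edgeR adjusted p = 0.0437). Both genes act in the alternative route, like CFB. Both lost their call with either RB-BC library left out, CFP also without DMSO 1 (0.67) and with library totals as the scaling (0.74).

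THBD, which encodes the anticoagulant receptor thrombomodulin that also aids C3b inactivation, had 87.2 and 83.0 CPM in RB-BC, against 36.2 and 34.4 CPM in DMSO (log2 fold change 1.27 ± 0.14, edgeR adjusted p = 0.0083). ITGAX, the alpha chain of complement receptor 4, had 102 and 124 counts in RB-BC, against 12 and 17 counts in DMSO (2.65 ± 0.38, edgeR adjusted p = 0.0135). Its partner chain ITGB2, at 33.7 and 35.0 CPM in RB-BC against 38.2 and 40.4 CPM in DMSO, did not pass (-0.19 ± 0.14, edgeR adjusted p = 0.363). Both integrin chains are leukocyte genes, and PTPRC had 46 and 48 counts in RB-BC, against 22 and 13 counts in DMSO. MASP1, a lectin-route protease, had 19 and 21 counts in RB-BC, against 2 and 0 counts in DMSO (edgeR adjusted p = 0.0405). Its scaled ratio was 16.3 (exact 95% interval 4.23 to 139, counting error only). MASP1 passed the low-count filter only through its RB-BC libraries, so nothing is read from its call. MASP2, the lectin-route protease that cuts C4 and C2, fell to 1.15 and 0.867 CPM in RB-BC, against 2.68 and 2.54 CPM in DMSO (log2 fold change -1.37 ± 0.31, edgeR adjusted p = 0.0373). C4BPB, a chain of C4b-binding protein, fell to 3.25 and 3.10 CPM in RB-BC, against 6.61 and 7.79 CPM in DMSO (-1.18 ± 0.22, edgeR adjusted p = 0.0235). Without RB-BC 1 ITGAX (2.78), MASP1 (3.96), MASP2 (-1.58), C4BPB (-1.21), C1RL (1.11) and THBD (1.24) lost their calls, and without RB-BC 2 the same genes except THBD did. MASP1 also lost its call without DMSO 2 (3.04) and with no low-count filter (3.90), and MASP2 without DMSO 1 (-1.33) and with library totals (-1.32).

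CD55 and CD46 belong to a row on chromosome 1 that runs C4BPB, C4BPA, CD55, CR2, CR1, CR1L and CD46. Apart from CD55, CD46 and C4BPB its genes had few counts or none, with 0 for C4BPA, CR1 and CR1L. CR2, a receptor for C3 fragments, had 14 and 24 counts in RB-BC, against 6 and 8 counts in DMSO. CFB lies on chromosome 6 near its relative C2, the classical-route counterpart, which had 23 and 18 counts in RB-BC against 10 and 13 counts in DMSO (log2 fold change 0.53 ± 0.50, edgeR adjusted p = 0.487). C4A and C4B are near-identical copies between which reads are uncertain. C4A had 51 and 69 counts in RB-BC, against 39 and 28 counts in DMSO, and C4B had 54 and 64 counts in RB-BC, against 28 and 30 counts in DMSO. Neither C4A (0.55 ± 0.36, edgeR adjusted p = 0.319) nor C4B (0.72 ± 0.35, edgeR adjusted p = 0.198) passed. CLU, a soluble inhibitor of the terminal pathway, stood at 55.4 and 58.4 CPM in RB-BC, against 58.6 and 86.2 CPM in DMSO (-0.35 ± 0.21, edgeR adjusted p = 0.281); when DMSO 1 was left out it passed (-0.60, edgeR adjusted p = 0.0269). C1QBP, a mitochondrial protein that binds C1q, was at 223 and 219 CPM in RB-BC, against 225 and 222 CPM in DMSO (-0.02 ± 0.14, edgeR adjusted p = 0.942). None of the 6 terminal pathway genes after C5 reached testing. C5 itself had 256 and 292 counts in RB-BC, against 314 and 152 counts in DMSO, and did not pass (-0.04 ± 0.32, edgeR adjusted p = 0.946). C1QA, C1QB and C1QC, the recognition subunits that C1r and C1s need, had no count.

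**Figure D3:**
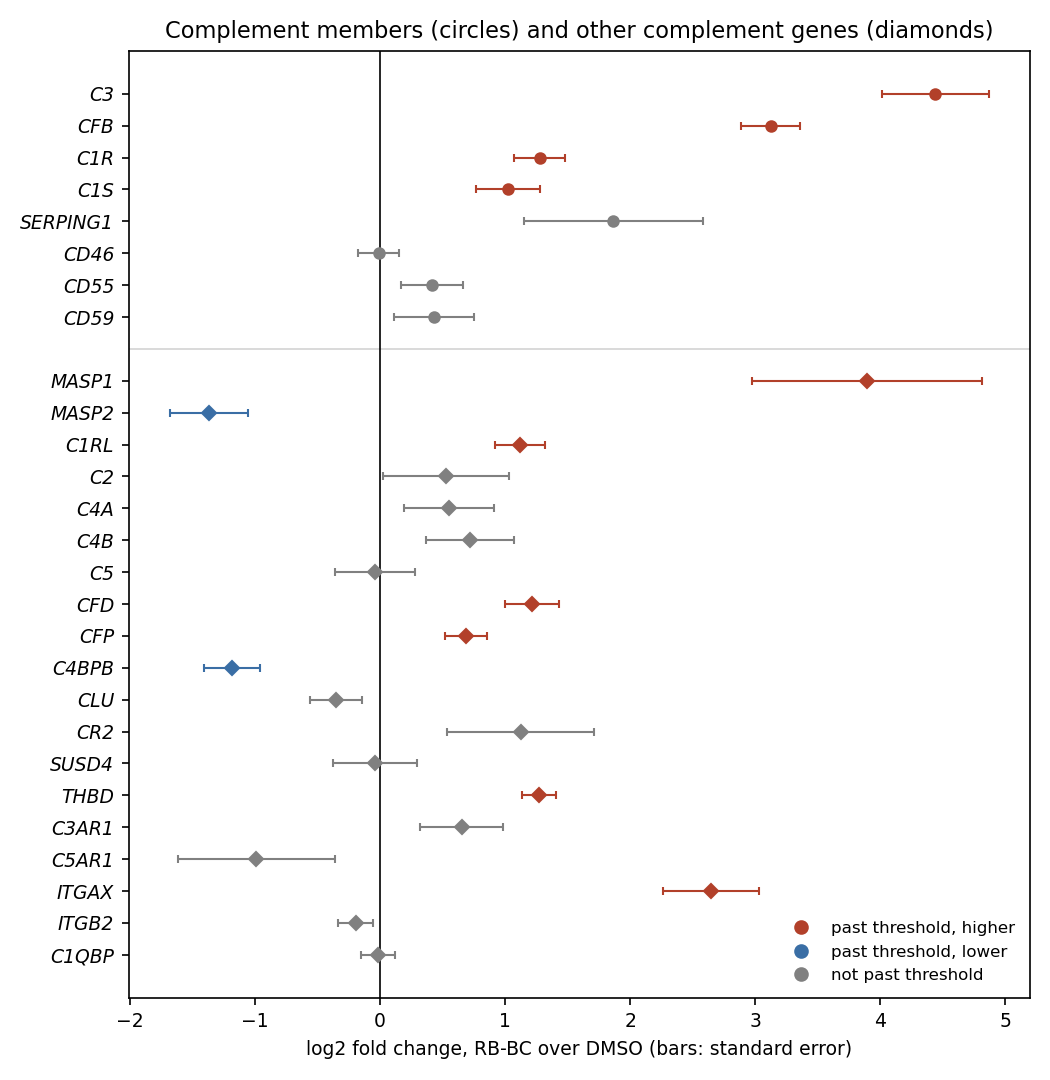
Log2 fold change of RB-BC over DMSO with its standard error for the 8 tested complement members (circles) and 19 of the 21 other tested complement genes (diamonds), coloured by whether edgeR's adjusted p was under 0.05. C3 at 4.44 and CFB at 3.13 lie furthest right among the members, and MASP2 and C4BPB are the called genes left of 0.

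CD55 and CD59 are held on the surface by a glycosylphosphatidylinositol (GPI) anchor, while CD46 spans the membrane. Of 25 genes for making, attaching and remodelling that anchor, 24 were tested, 2 fell and 0 rose, and the median log2 fold change was -0.10. The 2 falls stand beside 7.53% lower over all tested genes, so their share was near that background. By unadjusted p under 0.05, edgeR had 3 higher and 3 lower, with no all-gene share computed at that threshold. DESeq2 and limma-voom called 0 higher and 2 lower. PIGW, an inositol acyltransferase of the pathway, fell to 8.23 and 9.74 CPM in RB-BC, against 20.8 and 17.4 CPM in DMSO (-1.09 ± 0.19, edgeR adjusted p = 0.0199). PIGS, a subunit of the transamidase that attaches the anchor, fell to 55.2 and 56.1 CPM in RB-BC, against 83.0 and 88.9 CPM in DMSO (-0.63 ± 0.13, edgeR adjusted p = 0.0319). PIGA, whose loss removes CD55 and CD59 from blood cells in paroxysmal nocturnal haemoglobinuria, was at 25.1 and 23.3 CPM in RB-BC, against 29.2 and 29.3 CPM in DMSO, and did not pass (-0.27 ± 0.15, edgeR adjusted p = 0.235); it was named here after its values were seen. Of the other transamidase subunits, PIGT had 253 and 270 CPM in RB-BC, against 145 and 304 CPM in DMSO, and PIGK had 45.6 and 46.8 CPM in RB-BC, against 91.8 and 41.6 CPM in DMSO. For both of these the DMSO libraries lay further apart than the group means. PIGT (0.22 ± 0.33, edgeR adjusted p = 0.671) and PIGK (-0.53 ± 0.35, edgeR adjusted p = 0.324) did not pass, and both did when DMSO 2 was left out (0.85 and -0.99). GPAA1, also of this complex, was at 73.8 and 63.5 CPM in RB-BC, against 62.3 and 59.8 CPM in DMSO (0.17 ± 0.15, edgeR adjusted p = 0.442). PIGW and PIGS lost their calls with library totals as the scaling (-1.05 and -0.57) and with either RB-BC library left out, whereas 9 genes were called without DMSO 2, 3 higher and 6 lower.

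Transcription factors known to act on complement promoters were compared as a list of 12, of which 4 rose and 0 fell, with a median log2 fold change of 0.53. At an unadjusted p under 0.05, edgeR had 7 higher and 0 lower, with no all-gene share computed at that threshold. Over all tested genes 8.58% were called higher and 7.53% lower, and this list, like the acute-phase list, was put together with earlier results of these data known, so nothing particular to it is read from the count. The 4 were the NF-kB subunit genes NFKB2 (1.67 ± 0.16, edgeR adjusted p = 0.00696) and RELB (2.46 ± 0.27, edgeR adjusted p = 0.00881), and CEBPB (2.77 ± 0.17, edgeR adjusted p = 0.00378) and CEBPD (2.87 ± 0.27, edgeR adjusted p = 0.00685) of the C/EBP family. CEBPD had 62.1 and 37.7 CPM in RB-BC, against 6.83 and 6.77 CPM in DMSO. RELB had 61.9 and 44.8 CPM in RB-BC, against 7.65 and 11.7 CPM in DMSO. None of the 4 STAT and IRF genes passed edgeR's test, and 1 of them, STAT2, had an unadjusted edgeR p under 0.05 (0.59 ± 0.16, edgeR adjusted p = 0.0584). STAT2 passed by DESeq2 (DESeq2 adjusted p = 0.0220) or when DMSO 1 was left out (0.74). NFKB1 (0.43 ± 0.14, edgeR adjusted p = 0.0859), RELA (0.54 ± 0.24, edgeR adjusted p = 0.170) and STAT3 (-0.25 ± 0.14, edgeR adjusted p = 0.269) did not pass, while NFKB1 and RELA did when DMSO 2 was left out (0.51 and 0.85), NFKB1 also by DESeq2 (0.43). C3 and CFB are acute-phase proteins, and of 14 other acute-phase genes 5 were tested and 4 rose, beside 8.58% called higher over all tested genes: LCN2, PTX3, SAA2 and SERPINA1. PTX3, a pentraxin that binds C1q, had 386 and 345 CPM in RB-BC, against 80.8 and 62.6 CPM in DMSO (2.35 ± 0.19, edgeR adjusted p = 0.00525). SERPINA1, the antitrypsin gene, had 4.56 and 3.44 CPM in RB-BC, against 1.17 and 1.52 CPM in DMSO (1.57 ± 0.30, edgeR adjusted p = 0.0252). LCN2, which encodes an iron-scavenging lipocalin, had 1253 and 319 counts in RB-BC, against 0 and 18 counts in DMSO. With DMSO 1 at 0 no fold is given for LCN2 (edgeR adjusted p = 0.0241). Both libraries of a group met the low-count filter for LCN2 only in RB-BC, so nothing is read from its call. SAA2, a serum amyloid A gene, had 96 and 66 counts in RB-BC, against 21 and 19 counts in DMSO (1.72 ± 0.38, edgeR adjusted p = 0.0337). Its near copy SAA1 did not pass (1.99 ± 0.58, edgeR adjusted p = 0.0664), but did when DMSO 2 was left out (2.90) and by DESeq2 (1.99). LCN2 lost its call without RB-BC 1 and by DESeq2 and limma-voom, and SAA2 (1.42 and 1.97) and SERPINA1 (1.36 and 1.76) lost theirs without RB-BC 1 or RB-BC 2, SAA2 also without DMSO 1 (1.71).

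Among the 8 genes with counts, CD59 and C3 differed most between the RB-BC libraries. C3 was higher in RB-BC 1 than in RB-BC 2 by 0.86 on the log2 scale and CFB by 0.53, while C1S differed by 0.24, SERPING1 by 0.27 and C1R by 0.11. CD46 and CD55 were close between the treated libraries, at 0.00 and -0.02. CD59 was lower in RB-BC 1, at -0.98. From the 5th to the 95th percentile, all tested genes ran from -0.52 to 0.57 for this ratio, so C3 and CD59 lay outside that range. All 5 tested acute-phase genes were also higher in RB-BC 1, by 1.99 for LCN2, 0.94 for SAA1, 0.56 for SAA2, 0.41 for SERPINA1 and 0.16 for PTX3. CEBPD (0.72) and RELB (0.47) were higher in RB-BC 1 too. These are single ratios of 1 library to another, and no test applies. Between the DMSO libraries the same percentiles ran from -0.92 to 0.72. DMSO 1 was lower than DMSO 2 for SERPING1 (-2.17, on 2 and 8 counts), C3 (-0.75), CD55 (-0.72) and C1R (-0.45), and higher for CD46 (0.34), CD59 (0.22), CFB (0.09) and C1S (0.08).

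**Figure D4:**
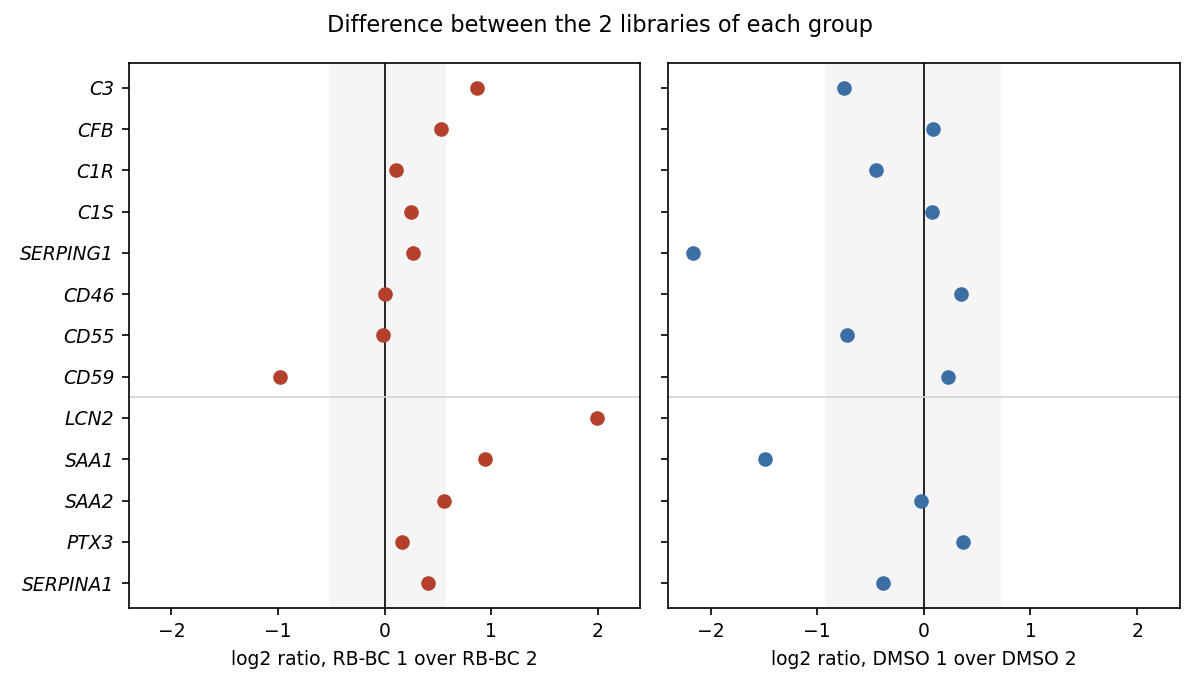
Log2 ratio of CPM between the libraries of a group, RB-BC on the left and DMSO on the right, for the 8 tested complement members (upper rows) and the 5 tested acute-phase genes (lower rows), with the 5th to 95th percentile of all tested genes shaded and LCN2 left out of the DMSO panel because DMSO 1 had no count. C3 (0.86) and CD59 (-0.98) lie on opposite sides of the shaded range in RB-BC.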

How the data were processed

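The files hold whole-number read counts per Ensembl gene, deposited by the authors without normalization that the values show, in 1 column per library. Per the labels' protocols, libraries were made from total RNA with an mRNA kit. The sources used here do not name the aligner, counter, strand setting or annotation. GRCm38 and mm10, both mouse builds, are listed per the submitters' processing notes, whereas all 20263 identifiers are human. Coordinates are therefore given only for RefSeq promoter sequences (GRCh38.p14), and other reference tables served for names, gene order and exon lengths. Symbols came from an identifier table for 20148 genes and from GENCODE release 29 for 76.

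Counts were tested in edgeR 4.0.16 (R 4.3.3): filterByExpr (minimum count 10, minimum total 15) kept 13744 genes, TMM scaled the libraries, and a two-sided quasi-likelihood test compared 2 RB-BC with 2 DMSO libraries, with Benjamini-Hochberg adjustment over all genes and a threshold of 0.05. Standard errors are the log2 fold change over the square root of F. The code was tested on simulated data. An exact permutation test of 2 against 2 cannot go below p = 0.333, so genes were tested only in this fit. Within groups, counts spread beyond sampling noise, with chi-square values of 35.4 (RB-BC) and 222 (DMSO) per degree of freedom. Alternatives were DESeq2 1.42.0, limma-voom (limma 3.58.1), RLE size factors, library totals alone, testing without the low-count filter or with a mean count floor of 50, the replicate number as a block, removal of mitochondrially encoded genes, and each library left out. Intervals and floors cover counting error only.

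The members and lists were chosen with earlier results of these data known. Named were all members, called genes of each list (up to 6), up to 3 abundant genes per list that did not pass, and C1RL, C2, C4A, C4B, CR1, CR1L and C4BPB as neighbours or paralogs of members. Genes named outside this rule (CFP, MASP1, CR2, C4BPA, C5, STAT2, PIGA, PTPRC, the C1q genes, overlapping genes and markers) were chosen after their values were seen. A few listed genes enter the counts but are not reported here by name.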

Additional observations from a re-analysis of the deposited data

How the results depend on the processing

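No fold change of a called gene in the 5 lists changed sign under any alternative. Of the 9 complement genes, 4 were past the threshold in the comparison reported, and 2 to 5 with a library left out. For the other complement genes the count was 8, and 0 to 8 with a library left out. The 0 came from edgeR without RB-BC 1, where 6 genes were higher and 2 lower at an unadjusted p under 0.05. The GPI anchor list had 2 calls, and 0 to 9 with a library left out. The 0 came from edgeR without RB-BC 1 (1 higher and 1 lower at an unadjusted p under 0.05) and without RB-BC 2 (0 higher and 2 lower), and the 9 without DMSO 2. It had 0 with library totals alone, where 2 genes were higher and 2 lower at an unadjusted p under 0.05 in edgeR. The transcription factor list had 4 calls, and 4 to 7 with a library left out, and the acute-phase list had 4, and 1 to 5. With the replicate number as a replicate block the calls were 3, 7, 1, 4 and 5 in the same order, where C1S (1.02), CFP (0.69) and PIGS (-0.63) lost their calls and SAA1 (2.01) gained one. Same-numbered libraries did not deviate together (correlation over genes -0.03), and the numbers are not known to pair cultures. RLE size factors and removal of mitochondrially encoded genes changed no call among the 70 genes tested in these lists. Over all tested genes the calls numbered 2214, against 1205 when scaled by library totals alone, 205 when RB-BC 1, 450 when RB-BC 2 and 3648 when DMSO 2 was left out. No all-gene share was computed at the unadjusted threshold. With 1 library left out, the lone library of its group is assumed to vary like the other pair. Counts of 0 to 30 in DMSO limit the precision of SERPING1, MASP1 and C3, and the cause of the lost calls was not tested.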
